A study of Drosophila melanogaster with 3 samples.

Results

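Runs of close peaks were examined in the peak list of 1 chromatin immunoprecipitation sequencing (ChIP-seq) sample of Drosophila melanogaster, in which a GFP-tagged form of Caudal had been recovered with an antibody against GFP. Peaks were ordered along the chromosome arms 2L, 2R, 3L, 3R, 4 and X, neighbours whose midpoints lay 5 kb or less apart were joined, and every chain of 5 or more peaks was taken. This gave 200 chains that together held 1205 peaks, out of 7579 peaks in the whole list and 7556 on the arms. The sample was labelled 3dFemale, its source 7T and its transgene cad-GFP, and the antibody NWG-GFP. Its title covers replicates 1 and 2, which are represented by 1 list. Of the 2 input samples of the series no values were analysed here. The growth text of the labels names y w, VK33 flies and an embryo collection, which is at odds with the stage label. That conflict was not resolved here. No promoter or cell type is given for the tagged protein, and cells were not separated by type.

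Caudal is a homeodomain transcription factor, known in the embryo for patterning the posterior body and in the adult for its role in the intestine. Genes that control development in Drosophila are often served by several enhancers spread over long stretches of DNA, in introns and in flanking DNA, and a factor that acts through several of them can leave a row of separate peaks in a ChIP-seq list. A row of peaks can also arise when a peak caller divides 1 broad enriched stretch at small dips in the signal. Which of these applied to a given chain was not tested. The gene table at hand describes another genome release than BDGP5, on which the peaks lie, so chains are identified by their position on BDGP5 and no gene is assigned to them. No genome sequence of that build was used, and no motif was searched.

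The chains were chosen by the measured positions of the peaks, and widths and scores came from the same peak call. Every value below is therefore a description of this list, without a test. The score has no definition in the file. It starts at 50, and at its upper end 29 arm peaks share the value 3100 exactly and 2 lie above it, the highest at 3146. It is used to order and describe peaks, not as an amount of bound protein, and peaks that share 3100 cannot be ordered among themselves. Ratios of scores are ratios on that scale. The read depth behind the peaks is unknown, and 1 list gives no replicate error.

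Most chains were short. Chains of 5 peaks numbered 96 and chains of 6 numbered 59. A further 22 chains had 7 peaks and 13 had 8. Sizes of 9 and 10 peaks were reached by 4 and 2 chains, and 1 chain each had 11, 12, 16 and 18 peaks. Just below the limit of the rule stood 194 chains of 4 peaks, whose median score was 184.2 against 200.8 in chains of 5. The limit on distance was equally gradual, with the widest accepted step at 4997.5 bp and the narrowest rejected one at 5000.5 bp. That rejected step lay on 3R, directly after a chain of 8 peaks at 3R 10528500 to 10544154.

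**Figure D1:**
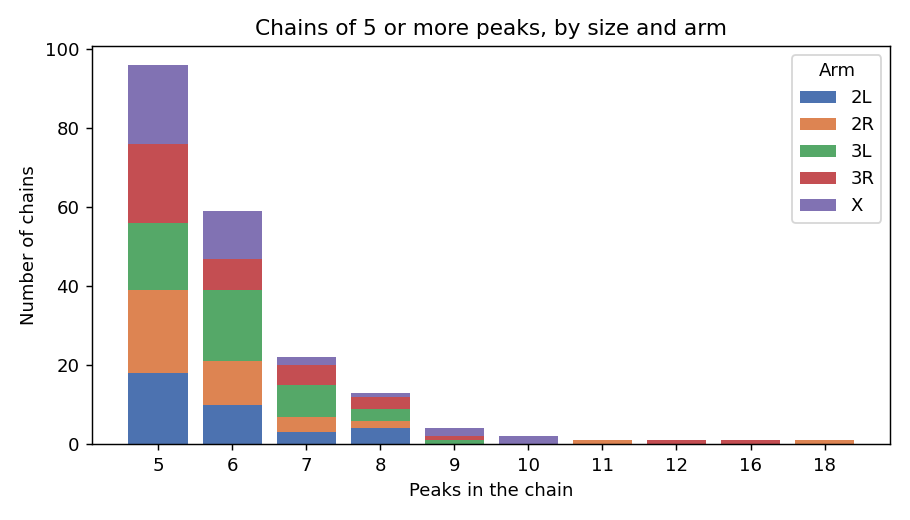
Number of chains (vertical axis) by the number of peaks they hold (horizontal axis, sizes without a chain left out), with the 5 arms that hold chains in colours. Chains of 5 peaks (96) and 6 peaks (59) make up most of the 200, and the chains of 16 and 18 peaks stand apart on 3R and 2R.

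The chains were compact. The median span from the first to the last base was 14.6 kb, with quartiles of 12.01 and 17.8 kb, and the shortest and longest spans were 4.06 and 44.8 kb. The chains took up 3.05 Mb, or 2.57% of the summed span of the arms, and contained 15.9% of the arm peaks and 14.6% of the length covered by peaks. Peaks covered 64.4% of the summed chain span and 9.97% of the arms outside the chains, a difference that the rule sets. Single chains ranged from 25.4% covered, at X 16807056 to 16818618, to 95.7% covered, at 3R 12059827 to 12081401. Among chains of 8 or more peaks the lowest share was 44.9%, at 2L 18136280 to 18156668, and the highest 88.0%, at 3R 3930533 to 3954104.

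Within a chain, neighbouring midpoints were a median of 2589.5 bp apart and facing edges a median of 744 bp. Of the 1005 links between neighbours, 424 (42.2%) had a gap of 500 bp or less and 132 (13.1%) had a gap of 100 bp or less. In chains of 2 to 4 peaks these shares were 36.3% and 13.7% of 2370 links, so gaps of 100 bp or less took a like share of the links in both. Outside the chain, the next peak often lay close by. The step between midpoints from a chain to the next peak had a median of 9.72 kb on the left and 10.9 kb on the right, and 141 of the 200 chains (70.5%) had a peak within 10 kb on at least 1 side.

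Some chains lay next to each other. Another chain of 5 or more peaks began within 10 kb for 19 chains (9.5%) and within 20 kb for 35 (17.5%). A group of 3 chains at 3R 21099307 to 21148874 held 19 chain peaks in 49.6 kb. A pair at 3R 25561948 to 25613138 held 17, one at 9843033 to 9896779 on the same arm held 15, and one at 3L 7819512 to 7863634 held 14.

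All large arms had chains. Arm 3L held the most, 47 chains with 282 peaks or 18.2% of its peaks. The X had 39 chains (16.8% of its peaks), 2R had 40 (16.01%), 2L had 35 (15.8%) and 3R had 39 (13.6%). Per megabase of arm span these were 2.02 chains on 3L, 1.91 on 2R, 1.74 on X, 1.53 on 2L and 1.40 on 3R. Chromosome 4, with 34 peaks, had none, and its longest chain had 3 peaks. The 23 peaks outside the arms did not form a chain of 5 or more either. Their longest chain had 3 peaks.

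Peaks in chains had about the same scores as the other arm peaks, with a ratio of medians of 1.01 that ran from 0.764 to 1.13 over 14 other settings of the rule. Their median was 200.2, with quartiles of 102.8 and 397, against 198.8 with quartiles of 102.2 and 422 for the 6351 peaks in chains of 1 to 4. Scores of 1000 or more were held by 81 chain peaks (6.72%) and by 431 of the others (6.79%), and scores under 100 by 24.0% of both. The medians by arm differed in direction. Chain peaks had the lower median on 2L (169.0 against 200.02) and on X (220.5 against 235), the higher on 3L (213.1 against 195.9) and 3R (209.9 against 195.97), and nearly the same on 2R (184.6 against 184.3).

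Width differed more at its extremes than at its middle. The median width was 1296 bp in chains and 1380 bp elsewhere. Peaks of 4 kb or more made up 4.65% of chain peaks (56 peaks) and 7.09% of the others (450), and peaks under 600 bp made up 5.89% and 9.07%. Of the peaks that had no neighbour within 5 kb, 11.1% were 4 kb or wider and 11.4% were under 600 bp. In chains of 2, 3 and 4 peaks 5.03%, 3.63% and 5.15% were 4 kb or wider. Peaks under 600 bp made up 8.69%, 6.79% and 6.44% there. The low share of peaks of 4 kb or more was therefore not particular to chains of 5 or more. Shares under 600 bp in chains of 3 and 4 were also low, though above 5.89%. The 8.69% in chains of 2 was near the 8.56% of all arm peaks. The rule measures between midpoints, and a wide peak holds its neighbours' midpoints farther away. Whether the rule bears on the share of peaks of 4 kb or more, or of peaks under 600 bp, was not tested. Neither share was recomputed with another distance measure. When facing edges were compared instead (5 kb or less), chain peaks were 1.20 times as wide at the median as the others. By midpoints the ratio was 0.94. The edge setting also reached farther, with 2511 chain peaks against 1205. With edges at 3 kb (1272 chain peaks) the ratio was 1.16, and with midpoints at 10 kb (3932 chain peaks) 1.15. By width class, chain peaks of 258 to 876 bp had a median score of 88.9 (others 95.4), those of 877 to 1368 bp 157.3 (158.3), those of 1369 to 2191 bp 278.8 (248.5) and those of 2192 bp or more 576 (535).

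Scores within a chain were uneven. The highest score of a chain was a median of 9.02 times its lowest, with quartiles of 5.27 and 14.6, and a median of 3.16 times the chain's own median score. In 73 chains (36.5%) the highest score was at least 2 times the next. At least 1 peak with a score of 1000 or more was present in 67 chains (33.5%), and 45 chains (22.5%) had no peak under 100. The score of a peak was little related to that of its neighbour. Across the 1005 links Spearman's rho was 0.05 for score and 0.27 for width, and the higher score of a pair was a median of 2.33 times the lower. In the 2370 links of chains of 2 to 4 peaks rho was 0.06 for score and 0.31 for width. The links share 1 peak call, and consecutive links share a peak, so these are descriptions.

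Away from the highest peak of a chain, scores showed no gradient. The highest peaks, picked for their score, had a median of 716.6 and a median width of 2274 bp. The 322 peaks next to it had a median score of 159.2, the 252 peaks at 2 places 158.98, the 189 at 3 places 180.7 and the 242 farther off 165.1. Widths in these classes had medians of 1184, 1136, 1295 and 1136 bp. The highest peak was also the widest in 107 chains (53.5%).

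The centre and the edge of a chain had overlapping scores. The 400 end peaks had a median score of 189.3 with quartiles of 99.4 and 400.005, and the 805 inner peaks 204 with quartiles of 103.9 and 395. The middle peaks of the chains with an odd number of peaks (123 peaks) had a median of 213, and the end peaks of the same chains 193. Compared within each chain, the median log2 score of the inner peaks was above that of the ends in 107 of 200 chains (53.5%), with a median difference of 0.18 and quartiles of -1.02 and 0.91. Over 14 other settings the difference ran from -0.38, when peaks were first merged across gaps of 500 bp or less, to 0.28 with a gap of 3 kb or less between facing edges, and it was below 0 in 5 of them. High scores lay somewhat more often at the ends, where 35 peaks (8.75%) reached 1000, against 46 inner peaks (5.71%). Wide peaks had the higher scores, and the midpoint rule may bear on where wide peaks stand in a chain. Its part in this share was not tested.

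Width showed the same overlap. End peaks had a median width of 1325.5 bp and inner peaks 1285 bp, and the inner peaks were the wider in 93 of 200 chains (46.5%). Peaks of 4 kb or more made up 6.5% of end peaks and 3.73% of inner peaks. A wide peak holds its neighbours' midpoints farther away, so the rule itself may bear on these shares, which was not tested. The highest score of a chain stood at an inner place in 122 chains (61%), where inner places made up 65.3% of all places on average over chains. By size this was 56 of 96 chains of 5 peaks (58.3%, with 60% of places inner) and 37 of 59 of 6 peaks (62.7%, 66.7%). It was 15 of 22 chains of 7 peaks (68.2%, 71.4%), 6 of 13 of 8 peaks (46.2%, 75%) and 4 of 4 of 9 peaks (100%, 77.8%).

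**Figure D2:**
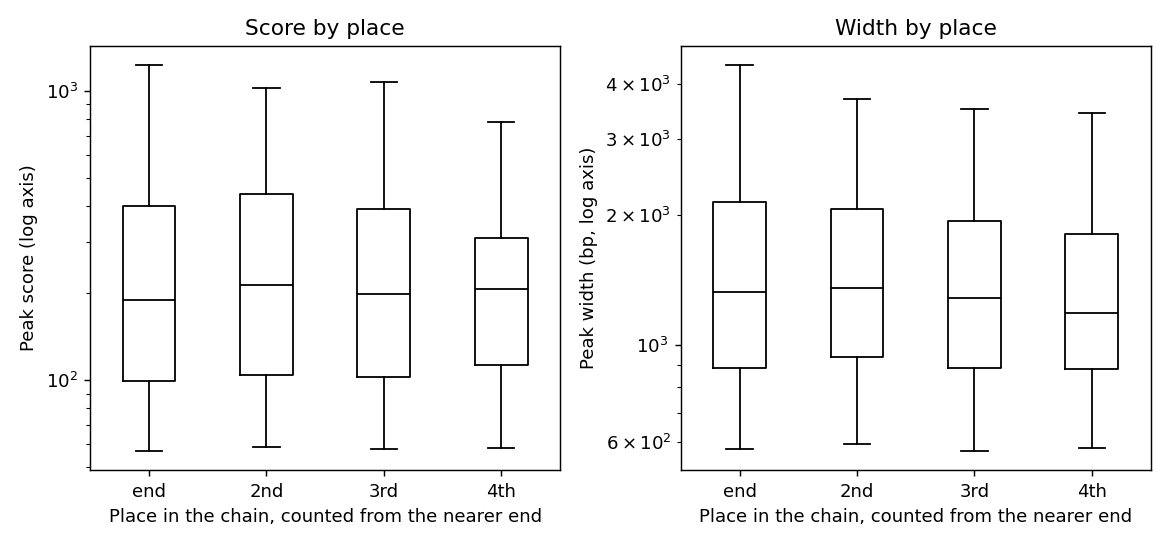
Score (left, log axis) and width in bp (right, log axis) of chain peaks by their place counted from the nearer end. Boxes give quartiles, the line the median and the whiskers the 5th and 95th percentile. The medians for score lie between 189.3 at the end and 214.1 at the 2nd place, and the boxes overlap at all 4 places.

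The longest chain lay at 2R 7524432 to 7569191, where 18 peaks spanned 44.8 kb and covered 60.01% of it. Its median score was 143.8 and 7 of the 18 peaks were under 100. Its highest peak, the 12th at 7547281 to 7550818, was 3538 bp wide and had a score of 1324. The next were the 2nd peak, at 7526600 to 7528838 with 744, and the 7th, at 7538074 to 7540639 with 551. These 3 peaks were also the 3 widest of the chain, and the 15 remaining peaks scored between 56.5 and 280.3.

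The second chain, at 3R 16995148 to 17027126, held 16 peaks in 32.0 kb and ended in its highest peak. That peak, at 17023160 to 17027126, had a score of 1643 and a width of 3967 bp. The first 8 peaks scored 50.95 to 145.6, and the next 7 scored 168.5 to 327.1, so that in this chain the lower scores were on the left. The median score was 157.1 and 6 peaks were under 100.

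The third chain lay at 3R 25581337 to 25613138 and had 12 peaks in 31.8 kb, of which they covered 50.01%. Its highest peak was the 7th, at 25597039 to 25601173, with a score of 1421 and a width of 4135 bp. The 10th peak, at 25606118 to 25610176, was 4059 bp wide with a score of 547. The other 10 peaks scored 51.88 to 197.2, and the narrowest was 363 bp wide. The chain of 11 peaks at 2R 7060606 to 7087579 also ended in its highest peak, 7081744 to 7087579, with a score of 2104 and a width of 5836 bp, while its other 10 peaks scored 51.19 to 499.9.

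**Figure D3:**
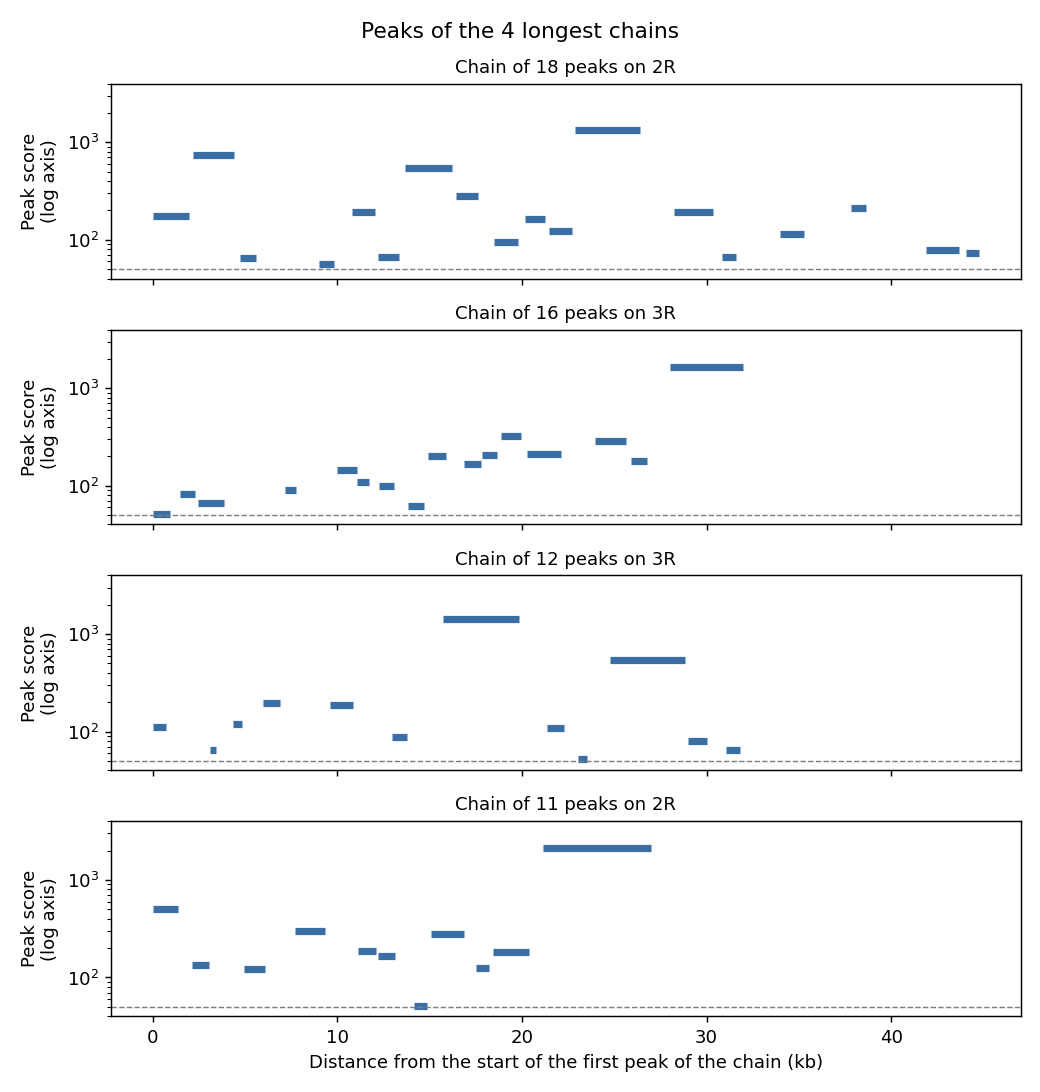
Peaks of the 4 longest chains, drawn as horizontal lines from start to end, with distance from the chain's first base in kb (horizontal axis) and score on a log axis (vertical); the dashed line is the floor of 50. In each chain the highest peak, with a score between 1324 and 2104, is also the widest, and in the chains of 16 and 11 peaks it is the last.

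On X the longest chains had 10 peaks. That at X 8777514 to 8802700 had 2 adjacent peaks over 1000, at 8784534 to 8789018 with 1342 and at 8789059 to 8792613 with 1683, and its others scored 68.5 to 396.6. That at X 13190097 to 13209267 had a highest score of 831.7 at its 3rd peak. On 3L the longest chain, at 14536904 to 14556067, had 9 peaks, none above 458.5. On 2L the longest had 8 peaks and there were 4 of them, among them 3293463 to 3309438. There the 5th peak, at 3301072 to 3303860, had the shared value of 3100 while the other 7 scored 75.21 to 457.97, and the chain's median was 117.1.

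In the 23 chains of 8 or more peaks the highest peak was the widest in 15 (65.2%) and scored at least 2 times the next in 10 (43.5%). It stood at an inner place in 14 (60.9%), while inner places made up 75% of places in chains of 8 peaks and more in longer chains. Peaks of these chains had a median score of 185.7 and a median width of 1195 bp, and 18 of the 217 reached 1000. The chain at 3L 7847413 to 7863634, chosen after its values were seen, had 3 peaks of 1000 or more among its 8, the highest at 2559.

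Median scores of the chains of 8 or more peaks ran from 93.0 to 399.95. The highest median score, 399.95, belonged to the chain of 9 peaks at X 13277462 to 13307688, whose scores ran from 169.6 to 717.9 with no peak under 100. The lowest, 93.0, belonged to the chain of 8 peaks at 3R 10528500 to 10544154, whose scores ran from 52 to 149.5. The ranges of these 2 chains did not overlap, but the 2 were picked as the extremes of median score among 23 chains. The chain of 8 peaks with the highest covered share, at 3R 3930533 to 3954104, began with a peak of 4577 bp and a score of 1758, and its others scored 58.56 to 874.4. The one with the lowest share, on 2L from 18136280 to 18156668, had its highest score, 549, at the 7th peak.

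**Figure D4:**
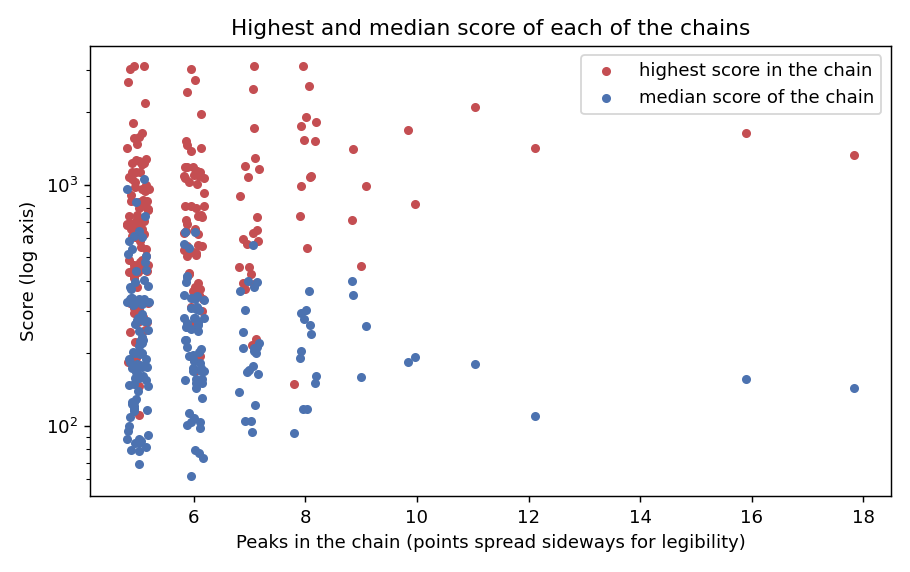
Highest (red) and median (blue) score of each of the 200 chains on a log axis against the number of peaks in the chain, with points spread sideways. The 4 chains of 11 or more peaks have median scores between 109.98 and 180.9 and highest scores between 1324 and 2104.

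The shared value of 3100 was held by 4 chain peaks, and both peaks above it lay outside the chains. Beside the one on 2L these were 2R 19599197 to 19602535, in a chain of 7 peaks, X 12643496 to 12648519 and X 19387971 to 19394751, each in a chain of 5. In the chain of 7 the other peaks scored 69.83 to 635.2. The chain at X 12635864 to 12653653 had the highest median score of all chains, 1057, and 3 of its 5 peaks were over 1000. At X 19385507 to 19400634 the other 4 peaks scored 111.2 to 422.5. The widest chain peak, 7402 bp at 3L 8682924 to 8690325 with a score of 2510, closed a chain of 7 whose other peaks scored 110.5 to 948.8.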

How the data were processed

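The peak list was deposited by the authors. MACS is named as the peak caller per the file headers. Bowtie (aligner) and BDGP5 (build) come from the submitters' processing notes. For versions, settings, use of the input and pooling of replicates, nothing is stated in the labels or headers. The deposited score per peak was used as the authors gave it. Deposited starts were read as 0-based (BED) and raised by 1 for printing. Chains were built with Python 3.11.15, pandas 2.3.3 and numpy 2.4.6. The chaining was tested on 1 simulated list whose steps all lay well inside or well outside the limit, so steps close to it were not tested. Peaks were not filtered. The members and the named positions were chosen with earlier results of these data known. The rule for named positions took chains of 12 or more peaks, the longest chain of each arm, the extremes of median score and of covered share among chains of 8 or more peaks, and the widest and highest-scoring chain peaks. The chain of 11 peaks, the extremes of covered share over all chains, the chain with the highest median score of all and the groups of neighbouring chains were added after their values were seen. Gene lists and a Caudal motif planned for this list were not run, for lack of an annotation and genome of BDGP5. Positions, widths and scores come from 1 peak call that also chose the members, so no test was made. Alternatives changed the linking distance, the distance measure, the least chain size, the merging of peaks and the score threshold.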

Additional observations from a re-analysis of the deposited data

How the results depend on the processing

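The number of chains of 5 or more peaks, 200 with 1205 peaks, depended on the rule. Linking at 2, 3, 4 and 10 kb gave 15, 51, 116 and 522 chains with 85, 297, 681 and 3932 peaks, and at 6 kb 1821 peaks. A gap of 5 kb between facing edges gave 381 chains with 2511 peaks. A least size of 4, 6 or 8 peaks gave 394, 104 and 23 chains with 1981, 725 and 217 peaks. Merging peaks across 500 bp left 47 chains with 260 peaks, a score of 100 or more left 84 with 488, and the 3778 peaks with the highest score left 23 with 122. The longest chain on the arms was taken anew in each setting and need not lie at the same place. It had 18 peaks by the rule, 9 at 2 kb and 9 at 3 kb. After merging it had 11, at a score of 100 or more 10, and among the 3778 peaks 8. At 6 kb it had 23 peaks, at 10 kb 27 and with edges at 5 kb 23.

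The median score of chain peaks, 1.01 times that of the others, was below 1 in 7 of 14 settings. It was 0.91 at 2 kb, 0.904 at 3 kb, 0.93 with at least 8 peaks, 0.764 after merging, 0.928 among the 3778 peaks, 1.11 with edges at 5 kb and 1.13 with edges at 3 kb. The median width, 0.94 times that of the others, was 0.709 at 2 kb, 0.787 at 3 kb, 0.86 at 4 kb, 0.871 with at least 8 peaks and 0.764 after merging. It was 1.03 at 6 kb, 1.15 at 10 kb, 1.2 and 1.16 with edges at 5 and 3 kb, 1.005 at a score of 100 or more and 1.01 among the 3778 peaks. So neither ratio had a direction that held over these settings.

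The share of chains with the highest score at an inner peak, 61%, was 72.4% at 10 kb, 68.2% and 69.2% with edges at 5 and 3 kb, 51.1% after merging and 69.6% among the 3778 peaks. Longer chains have more inner places by construction. The share of places that were inner was not computed for these settings, so the part of chain length in these shifts was not tested. The median log2 difference of inner and end scores was 0.18, with a 95% order-statistic interval of -0.13 to 0.37. It was -0.38 (-0.67 to -0.03) after merging and 0.28 (0.04 to 0.51) with edges at 3 kb, so its sign depended on the setting. A merged peak took the highest score of its parts. The intervals treat the chains of 1 list as separate units, so they serve to compare settings and are not a test. Leaving out peaks with a score of 3100 or more kept each of these 7 results within its interval or within 1.5 times its count. No paired analysis was possible because 1 list stands for both ChIP replicates and the inputs entered no comparison, so no replicate could be left out either. The depth is unknown, so whether a gap within or beside a chain lacked binding or reads cannot be told apart.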
